A study of Mus musculus with 8 samples.

Results

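The BCL-2 family decides whether the outer membrane of the mitochondria stays closed, and 10 of its genes were examined in J774A.1 cells, a mouse macrophage cell line, that had been stimulated with LPS with or without the bile acid UDCA. The 10 were chosen by gene name from the 55487 genes of the deposited table, and all 10 were found. They were the survival genes Bcl2, Bcl2l1, Mcl1 and Bcl2a1b, the effector genes Bax and Bak1, and the BH3-only genes Bid, Bcl2l11, Bbc3 and Pmaip1. All 8 libraries came from cells given LPS at 1 μg/mL, a stimulus from the outer wall of bacteria, and 4 of them from cells given UDCA at 1 mM as well, both for 24 h. The model is one transformed cell line grown in plates. Cells without LPS and cells given UDCA alone were not analysed here, so each comparison is of the LPS + UDCA group with the LPS group. The labels number the libraries of a group from 1 to 4 without saying how the cultures were kept apart, so the error given is the spread between these samples, part of which may be technical.

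In cells that die by the mitochondrial route, the effector proteins BAX and BAK open pores in the outer membrane, cytochrome c leaves, and caspases are switched on. Survival proteins such as BCL-2, BCL-XL (the main product of Bcl2l1), MCL-1 and A1 (the product of the Bcl2a1 genes) hold the effectors and their activators in check. BH3-only proteins are the sensors of stress, and either occupy the groove of the survival proteins or activate the effectors directly. Macrophages are known for long survival under LPS, and A1 and BCL-XL are among the survival proteins that inflammatory signals induce. Much of this control acts on the proteins, through binding, cleavage and turnover, which RNA levels do not show.

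Levels are in TPM, in which the reads of a gene are divided by its length and scaled within a library, so that levels of different genes can be set side by side. The LPS libraries had a total over all genes of 973190 to 977485 TPM and those with UDCA one of 958918 to 962737 TPM. TPM keeps no read number, and sequencing depth is therefore unknown. Differences were tested with limma (linear models whose variances borrow from all genes) on log2(TPM + 1) in 11796 genes that averaged 1 TPM or more, and fold changes are given on that log2 scale, where changes at low TPM come out too small. All 10 genes passed this minimum, Bcl2 only through its LPS + UDCA libraries, so that it had to differ. Of all genes tested, 72.5% had an adjusted p under 0.05, 40.2% as higher and 32.3% as lower with UDCA, and 17.1% also passed a fold change of 2, 8.71% up and 8.44% down. The median log2 fold change of all genes tested was 0.08. Of the 10 BCL-2 family genes, 8 had an adjusted p under 0.05 from limma, 4 higher (Bcl2, Pmaip1, Bbc3 and Bcl2a1b) and 4 lower (Bcl2l1, Mcl1, Bid and Bax). Without Bcl2 these were 7 of 9 genes, 3 higher and 4 lower, a share near that of all genes. Only Bcl2l1 also passed a fold change of 2, 1 of 10 genes. The same 8 genes did not overlap between the groups, 4 higher and 4 lower, where 66.8% of all genes tested did not overlap, 37.0% as higher and 29.9% as lower.

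Macrophage markers were present in both groups. All 7 were detected, with a summed level of 3903 to 4153 TPM in the LPS libraries and 1675 to 1873 TPM in the LPS + UDCA libraries. Of the 7, 5 were lower with UDCA and 2 higher at an adjusted p under 0.05 from limma, from Itgam (log2 fold change -2.91) to Adgre1 (1.27). The 12 markers of T cells, B cells, epithelium and fibroblasts reached at most 0.47 TPM in any library. In bulk RNA, fewer cells that express a gene and less RNA per cell cannot be told apart, and the part that the markers' change has in the results was not tested.

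Among the survival genes, Bcl2l1 fell to 0.239 and Mcl1 to 0.564 of the LPS level, while the scarce Bcl2 rose 3.08-fold from a very low level and Bcl2a1b was 1.09-fold higher, a step that did not pass the test with another scaling. Bcl2l1 (ENSMUSG00000007659) lies on chromosome 2 from 152780668 to 152831728 of GRCm38, on the minus strand, and has 9 annotated transcripts. In LPS replicates 1 to 4 it had 485, 467, 462 and 477 TPM. With UDCA the replicates had 122, 121, 107 and 100.25 TPM. Every LPS + UDCA library lay far below every LPS library, and the libraries of each group kept within a narrow range. The group means were 472.9 ± 10.3 TPM (SD, n = 4) and 112.8 ± 10.8 TPM, a ratio of 0.239. The log2 fold change was -2.06 (standard error, SE, 0.063, 95% interval -2.21 to -1.92, limma adjusted p = 1.3e-08). Of all genes tested, 1.43% had a lower log2 fold change. The gene-level value joins transcripts that encode the long, protective form and the short form, and does not tell them apart.

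Mcl1, which encodes a survival protein with a short life in the cell, lies on chromosome 3 from 95658788 to 95663176 (ENSMUSG00000038612). In the LPS libraries it had 151, 167, 154 and 165 TPM, and in the LPS + UDCA libraries 92.4, 92.8, 86.1 and 88.55 TPM. The groups stood clearly apart. The means were 159.5 ± 7.87 and 89.98 ± 3.20 TPM (SD, n = 4), with a log2 fold change of -0.82 (SE 0.045, limma adjusted p = 3.7e-07), short of a fold change of 2.

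Bcl2 itself, the founding member of the family, was the least abundant of the 10 genes in both groups. It lies on chromosome 1 from 106538178 to 106714274 (ENSMUSG00000057329). The LPS libraries had 0.84, 0.60, 1.25 and 1.00 TPM, and the LPS + UDCA libraries 1.99, 3.13, 2.82 and 3.41 TPM. All 4 LPS + UDCA libraries were above all 4 LPS libraries. The means were 0.9225 ± 0.273 and 2.837 ± 0.614 TPM (SD, n = 4), a ratio of 3.08, and of all genes tested 8.06% had a lower mean. On the log2(TPM + 1) scale the fold change was 0.99 (SE 0.16), just under the minimum of 1, and 1.54 with a pseudocount of 0.1. The minimum of 1 TPM was reached through the higher group alone. The test of Bcl2 is therefore given from the fit on all genes above 0 TPM (limma adjusted p = 0.0014). Over the alternatives the limma adjusted p ran from 2.2e-04 to 0.0020. All of these but that fit kept the minimum of 1 TPM, so the range adds no support.

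Bcl2a1b, one of the mouse copies of the A1 gene, is on chromosome 9 from 89199209 to 89207827 (ENSMUSG00000089929). Its LPS libraries had 188, 199, 194 and 204 TPM and its LPS + UDCA libraries 217, 226, 205 and 211 TPM. The groups came close, at 203.88 TPM in LPS replicate 4 and 205.34 TPM in LPS + UDCA replicate 3, without overlapping. The log2 fold change was 0.13 (SE 0.040, limma adjusted p = 0.016). With median-of-ratios scaling it was 0.02 and no longer past the threshold (limma adjusted p = 0.69, with a range of 0.0024 to 0.69 over the alternatives).

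**Figure D1:**
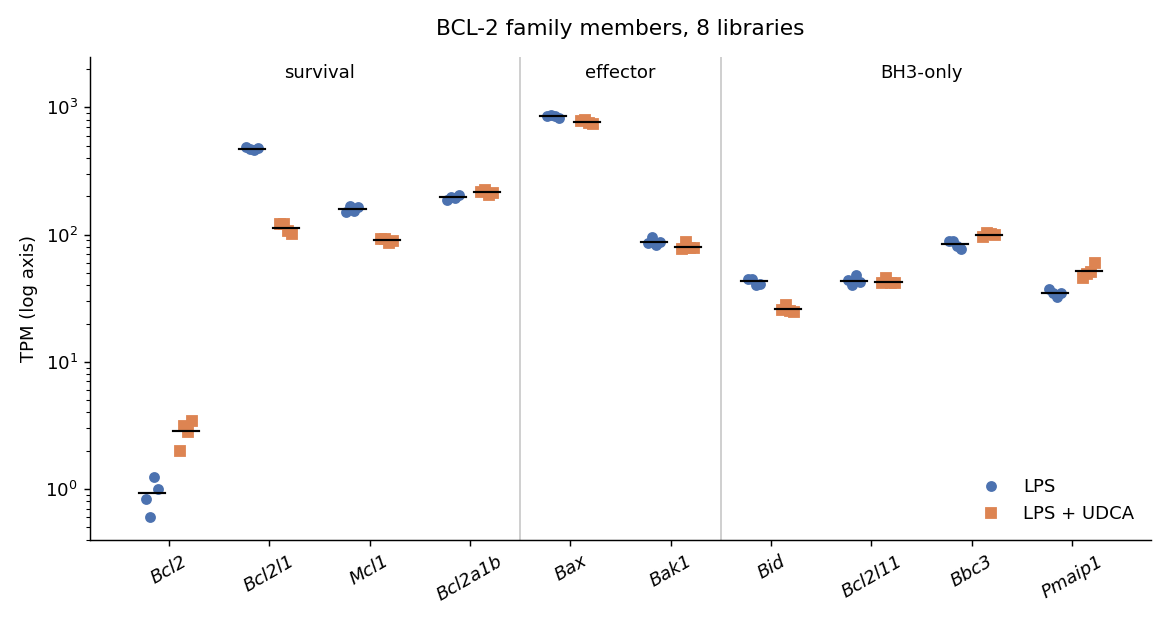
TPM of the 10 BCL-2 family genes on a log axis, by role, in the 4 LPS libraries (circles) and the 4 LPS + UDCA libraries (squares), with replicates 1 to 4 from left to right and a bar at each group mean. Bcl2l1 drops from 472.9 to 112.8 TPM on average, Bax stays the highest of the 10 in both groups, and Bcl2 lies under 4 TPM throughout.

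The effector genes differed little between the groups. Bax, whose product moves to the mitochondria and forms pores, lies on chromosome 7 from 45461697 to 45466898 and had the highest TPM of the 10 genes. The LPS libraries had 854, 878, 855 and 819 TPM, and the LPS + UDCA libraries 777, 799, 754 and 742 TPM. All 4 libraries with UDCA were lower, with a ratio of the means of 0.902. The log2 fold change was -0.15 (SE 0.033, limma adjusted p = 0.0029), but 0.01 with quantile normalization (limma adjusted p = 0.75, with a range of 3.8e-04 to 0.75 over the alternatives). Bak1, which encodes the other pore former and lies on chromosome 17 from 27019810 to 27029009, had 85.2, 95.2, 82.8 and 87.5 TPM with LPS and 77.65, 87.2, 79.1 and 78.2 TPM with LPS + UDCA. The groups overlapped, since LPS + UDCA replicate 2 was higher than 2 of the LPS libraries. The difference did not pass the threshold (log2 fold change -0.12, 95% interval -0.25 to 0.01, limma adjusted p = 0.078), but did without LPS + UDCA replicate 2 (log2 fold change -0.16, limma adjusted p = 0.023, with a range of 0.0044 to 0.41 over the alternatives). Exons of Bak1 share 437 of 2407 bases with Ggnbp1 on the opposite strand, which had at most 11.85 TPM, and those of Bax 192 of 1576 bases with Gm45808 on the same strand, at most 1.22 TPM.

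The BH3-only genes did not move as a block. Bid fell, Pmaip1 and Bbc3 rose, and for Bcl2l11 no difference was found. Bid, whose product is cut by caspase-8 and links death receptors to the mitochondria, is on chromosome 6 from 120891930 to 120916853. It had 44.8, 45.05, 40.1 and 41.2 TPM in the LPS libraries and 25.6, 28.2, 24.9 and 24.8 TPM in the LPS + UDCA libraries. The groups were well apart, with means of 42.79 ± 2.51 and 25.88 ± 1.58 TPM (SD, n = 4). The log2 fold change was -0.70 (SE 0.060, limma adjusted p = 5.6e-06). Exons of Bid share 628 of 3550 bases with Bcl2l13 on the opposite strand, and whether reads were counted by strand is not given in the sources used here. Bcl2l13 ran from 22.3 to 28.78 TPM with LPS and from 19.43 to 26.35 TPM with LPS + UDCA.

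Pmaip1 (NOXA), a BH3-only gene whose product binds MCL-1 and A1, rose in all 4 LPS + UDCA libraries above all LPS libraries. It had 37.6, 34.5, 32.25 and 34.9 TPM with LPS, and 45.6, 48.6, 51.25 and 59.6 TPM with LPS + UDCA. The libraries with UDCA were more spread than those without. The means were 34.81 ± 2.19 and 51.27 ± 6.0 TPM (SD, n = 4), with a log2 fold change of 0.54 (SE 0.082, limma adjusted p = 2.7e-04). Bbc3 (PUMA), a p53 target whose product binds all of the main survival proteins, is on chromosome 7 from 16308393 to 16318205. Its LPS libraries had 88.45, 88.4, 81.3 and 77.3 TPM and its LPS + UDCA libraries 95.9, 103, 100.7 and 100.1 TPM. Here too the groups did not overlap, but the step was small (log2 fold change 0.25, SE 0.051, limma adjusted p = 0.0016).

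Bcl2l11 (BIM), a BH3-only gene that sets the life span of many blood cells, is on chromosome 2 from 128126038 to 128162547 and has 8 annotated transcripts. The LPS libraries had 43.6, 40.3, 47.9 and 42.1 TPM, and the LPS + UDCA libraries 41.7, 45.45, 41.8 and 41.5 TPM. The range of the LPS + UDCA libraries lay inside that of the LPS libraries. The log2 fold change was -0.03 (95% interval -0.16 to 0.11, limma adjusted p = 0.71). With all 70 arrangements of the libraries, an exact permutation test gave a 2-sided p of 0.63 for Bcl2l11 and 0.086 for Bak1. For each of the other 8 genes the exact permutation p was 0.029, the smallest it can give with 4 libraries a group. Bcl2 is one of these 8, and its value carries no weight, since it passed the minimum through its higher group alone.

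**Figure D2:**
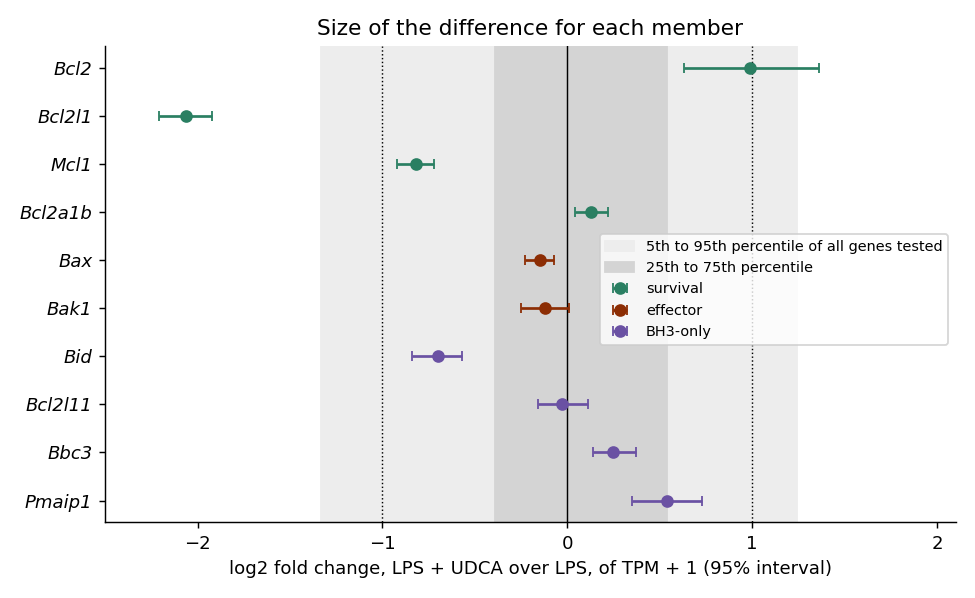
Log2 fold change of TPM + 1, LPS + UDCA over LPS, for the 10 genes, coloured by role, with 95% intervals from limma. The grey bands hold the middle 50% and the middle 90% of all 11796 genes tested, and dotted lines mark a fold change of 2. Bcl2l1 at -2.06 is the only gene outside the wider band, which runs from -1.33 to 1.24.

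The order of the 10 levels changed below the top. With LPS, Bax was highest (851.5 TPM), followed by Bcl2l1, Bcl2a1b and Mcl1 (472.9, 196.1 and 159.5 TPM), each apart from the next in all 4 libraries. Bak1 and Bbc3 followed at 87.66 and 83.87 TPM and overlapped, as did Bcl2l11 and Bid at 43.46 and 42.79 TPM. Pmaip1 and Bcl2 came last. With LPS + UDCA, Bax was again highest (767.7 TPM), but Bcl2a1b came next at 214.7 TPM. Bcl2l1 came after it and overlapped with Bbc3 (112.8 and 99.91 TPM), although it was the higher of the pair in all 4 libraries. Mcl1 and Bak1 overlapped at 89.98 and 80.56 TPM, and Pmaip1 had moved above Bcl2l11 and Bid.

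The summed TPM of the 10 genes ran from 1950 to 2020 in the LPS libraries and from 1450 to 1550 in the LPS + UDCA libraries. Survival genes held 41.4% to 43.5% of it with LPS and 27.6% to 29.0% with LPS + UDCA. The share of the effectors was 46.5% to 48.3% against 56.6% to 57.3%, and that of the BH3-only genes 10% to 10.8% against 13.9% to 15.6%. Shares add up to a fixed whole, so a drop of Bcl2l1 alone raises those of other genes. Within the survival genes, Bcl2l1 made up 57.0% ± 1.2 (SD, n = 4) of the summed TPM with LPS and 26.8% ± 1.4 with LPS + UDCA, and Bcl2a1b 23.6% ± 0.60 and 51.1% ± 0.90. For a single TPM of Bax there was 0.556 ± 0.024 TPM of Bcl2l1 with LPS and 0.147 ± 0.0099 TPM with LPS + UDCA. For Pmaip1 over Mcl1, whose products bind each other, the ratio of TPM was 0.219 ± 0.020 and 0.571 ± 0.080, and for Bbc3 over Bcl2l1 it was 0.177 ± 0.012 and 0.892 ± 0.095. None of these ratios overlapped between the groups. For the last pair of ratios this was fixed beforehand, since Pmaip1 and Bbc3 rose and Mcl1 and Bcl2l1 fell, each without overlap. It adds no support to the single genes. All of them are ratios of RNA and say nothing of the amounts of protein. Since the genes were chosen with earlier results known, the ratios are given without a test.

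**Figure D3:**
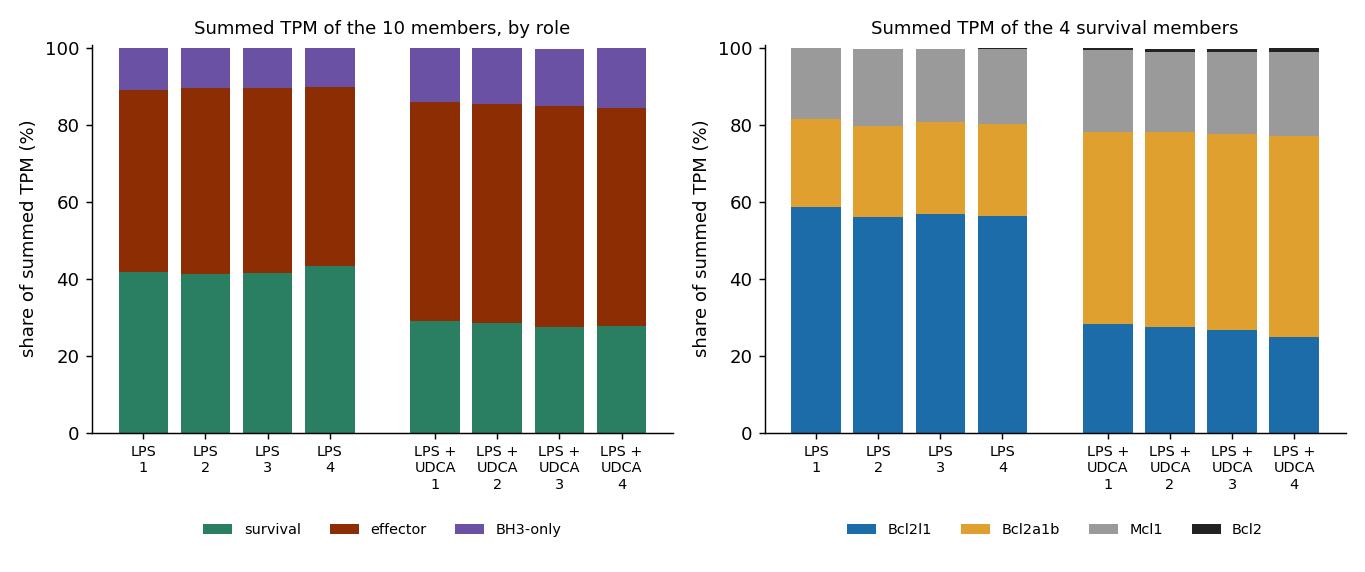
Stacked bars of the share of summed TPM in each of the 8 libraries, for the 10 genes by role (left) and for the 4 survival genes (right). With LPS + UDCA the survival share is 27.6% to 29.0%, against 41.4% to 43.5% with LPS, and Bcl2a1b takes the place of Bcl2l1 as the main part of it. The other A1 copies, also higher with UDCA, are not in these sums.

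The mouse genome holds several A1 copies that reads can hardly tell apart, and the value of Bcl2a1b has to be read with them. The coding sequences of Bcl2a1a, Bcl2a1b and Bcl2a1d are 516 bases long in GENCODE M21 and differ from one another at 12 positions in all, with identities of 97.9% to 98.8%. The 90 bases with the most such positions are the first of the coding sequence, in exon 1, and are shown because reads that cover them can separate the copies. Capitals mark the 6 positions in the stretch where the 3 copies are not all alike. On GRCm38 they are Bcl2a1a at chr9:88957051-88957140 (plus strand), Bcl2a1b at chr9:89199360-89199449 (plus strand) and Bcl2a1d at chr9:88731630-88731719 (minus strand).
Bcl2a1a: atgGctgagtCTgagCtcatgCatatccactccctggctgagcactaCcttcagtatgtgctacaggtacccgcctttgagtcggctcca
Bcl2a1b: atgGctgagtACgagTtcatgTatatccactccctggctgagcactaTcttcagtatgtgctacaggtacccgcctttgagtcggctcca
Bcl2a1d: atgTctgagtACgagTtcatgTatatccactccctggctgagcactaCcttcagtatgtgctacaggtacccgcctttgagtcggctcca

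Of the 31-base words of the transcripts, 88.8% of those of Bcl2a1b, 89.1% of Bcl2a1d, 79.6% of Bcl2a1a and 30.9% of Bcl2a1c also occur in another gene. The split of reads between these copies is therefore uncertain. Gm29094 also overlaps Bcl2a1b, on the same strand and over 401 of its 817 exon bases, and had 3.78 to 6.10 TPM with LPS and 5.87 to 8.17 TPM with LPS + UDCA. As deposited, Bcl2a1a rose most of the copies. It had 15.5, 11.3, 12.65 and 13.15 TPM with LPS and 49.5, 53.0, 41.2 and 53.6 TPM with LPS + UDCA, far above (log2 fold change 1.83, SE 0.11, limma adjusted p = 5.2e-07). Bcl2a1d went from 77.1, 84.5, 88.9 and 90.65 TPM to 122, 119, 104 and 114 TPM (log2 fold change 0.42, limma adjusted p = 2.8e-04). Bcl2a1c, a shorter copy elsewhere on chromosome 9, went from 9.65, 9.54, 9.5 and 10.09 TPM to 16.2, 15.4, 12.55 and 11.4 TPM (log2 fold change 0.46, limma adjusted p = 0.0030). In all 4 copies the groups did not overlap and the direction was upward, as in 37.0% of all genes tested. Since the copies share so many words, these are not 4 separate findings. The split between the copies matters less in their sum, although Bcl2a1c is shorter than the others and Gm29094 is left out. Summed over the 4 copies, the level was 290 to 318 TPM with LPS and 363 to 413 TPM with LPS + UDCA. With this sum in place of Bcl2a1b in the fit, a measure chosen after the values were seen, the log2 fold change was 0.37 (SE 0.046, limma adjusted p = 8e-05).

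**Figure D4:**
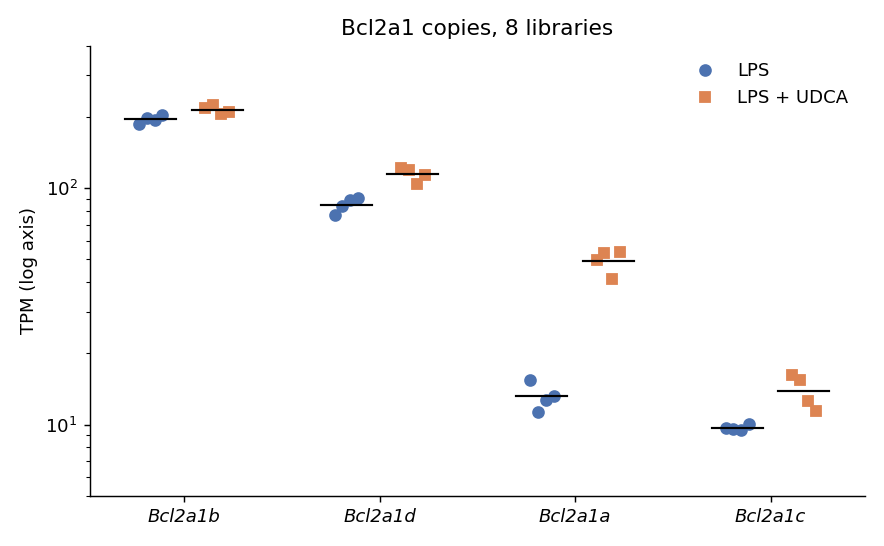
TPM of the 4 Bcl2a1 copies on a log axis in the LPS libraries (circles) and the LPS + UDCA libraries (squares), with replicates 1 to 4 from left to right and a bar at each group mean. The step is widest for Bcl2a1a, from 11.3 to 15.5 TPM with LPS to 41.2 to 53.6 TPM with LPS + UDCA.

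The stretches before the start sites were read from RefSeq promoter windows on GRCm38.p6 (250 bases before to 50 after a start). For 9 of the 10 genes, 14 windows were examined in all. Windows of the chromosome that holds Pmaip1 were left out of the search for these genes, so the counts leave Pmaip1 out. They were not left out of the share of all windows. Whether RefSeq lists a window for Pmaip1 was not tested. Short motifs were searched on both strands and counted as letters, not as sites that are used. TGATGCAA, the form that C/EBP and ATF factors can share, was found in 1 of these 14 windows, that of Bcl2a1b, and in the windows of Bcl2a1a, Bcl2a1c and Bcl2a1d, while 0.895% of all 32851 windows hold it. The match lies in a stretch of 78 bases that the 4 copies share except at 2 positions, so these are not separate findings. The match starts 40 bases before the annotated start of Bcl2a1b and 4 bases after that of Bcl2a1a, at chr9:89199173-89199250 and chr9:88956864-88956941 for the stretches shown, both on the plus strand, with the motif in capitals.
Bcl2a1b: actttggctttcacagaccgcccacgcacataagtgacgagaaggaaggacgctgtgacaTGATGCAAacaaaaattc
Bcl2a1a: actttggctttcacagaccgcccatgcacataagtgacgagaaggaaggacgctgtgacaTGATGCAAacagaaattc

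A loose form of the NF-κB motif (GGG, any 2 bases, TTTCC) was found in 3 of the 14 windows, 1 each of Bcl2l1, Mcl1 and Bbc3, of which the first pair fell and Bbc3 rose, against 1.63% of all windows. The upstream 250 bases of Bcl2l1 and Mcl1, the pair of survival genes that fell, are shown with the matches in capitals, both on the opposite strand. In Mcl1 the match overlaps one to GGGCGG. The Bcl2l1 stretch is at chr2:152830718-152830967 on the minus strand, before one of its 3 annotated starts, and that of Mcl1 at chr3:95658471-95658720 on the plus strand.
Bcl2l1: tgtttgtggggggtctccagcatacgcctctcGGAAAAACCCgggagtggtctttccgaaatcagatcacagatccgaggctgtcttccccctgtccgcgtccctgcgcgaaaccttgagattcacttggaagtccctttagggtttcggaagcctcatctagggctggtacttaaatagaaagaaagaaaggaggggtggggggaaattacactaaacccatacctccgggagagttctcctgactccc
Mcl1: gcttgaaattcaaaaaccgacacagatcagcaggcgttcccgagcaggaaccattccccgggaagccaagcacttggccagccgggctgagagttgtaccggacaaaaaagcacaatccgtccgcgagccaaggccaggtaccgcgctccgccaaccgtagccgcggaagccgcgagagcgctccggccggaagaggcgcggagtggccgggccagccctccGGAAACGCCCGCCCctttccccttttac

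Among the other motifs, GGGCGG was found in 10 of the 14 windows (35.7% of all windows), CCAAT in 3 (37.4%), and GTAAACA (3.65%) and CACGTG (7.15%) each in 2. TGACGTCA (1.79%) and TATAAA (13.6%) were found in 0 of the 14. GTAAACA, which FOXO factors recognise, was in windows of Bcl2l11 and Bbc3.

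The rest of the apoptotic pathway was examined in lists, of which each count is set beside the 40.2% of all genes that were higher and the 32.3% that were lower. Of 15 other BCL-2 family genes, 11 were tested, and 5 were higher and 2 lower at an adjusted p under 0.05 from limma, with a median log2 fold change of 0.13. Among the 5 are Bcl2a1a and Bcl2a1d, whose reads can hardly be told from those of Bcl2a1b. After Bcl2a1a, the BH3-only gene Bik rose most on the log2(TPM + 1) scale (log2 fold change 1.60). It went from between 1.40 and 2.17 TPM to between 6.66 and 8.22 TPM. By the ratio of the mean TPM it rose more than Bcl2a1a (4.15 against 3.75). Bcl2l12 was lowest, at 7.95 to 12.89 TPM with LPS and 1.81 to 3.54 TPM with LPS + UDCA (log2 fold change -1.53). Among the other BH3-only genes, Bad fell from between 38.54 and 52.97 TPM to between 23.18 and 33.86 TPM (-0.66). Bmf did not pass the threshold (-0.42, limma adjusted p = 0.091). Hrk and Bcl2l10 were listed at 0 in every library.

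Of 12 genes for the apoptosome, proteins released from mitochondria and the caspases, 1 was higher and 8 lower, with a median of -0.23. Diablo, whose product binds IAP proteins, was the one that was higher (0.26), and not past the threshold with median-of-ratios scaling (0.15, limma adjusted p = 0.16). Of 10 partners at the outer membrane and the endoplasmic reticulum, 3 were higher and 6 lower (median -0.19). The calcium channel gene Itpr1 was lowest (-1.39), and Tmbim6, which encodes the BAX inhibitor 1 protein, was highest (0.67), from 308 to 336 TPM with LPS to 502 to 516 TPM with LPS + UDCA.

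The IAP family, some of whose members bind caspases or act as ubiquitin ligases in TNF signaling, had 7 tested genes of 9. Of these, 5 were higher and 1 lower (median 0.62). Birc3, which encodes cIAP2, rose from 17.8, 14.6, 20.8 and 17.2 TPM to 68.6, 76.6, 77.6 and 77.9 TPM (log2 fold change 2.04, SE 0.095, limma adjusted p = 1.4e-07). Birc5, which encodes survivin, an IAP family protein that also acts in cell division, fell from between 67.2 and 69.15 TPM to between 5.60 and 7.69 TPM (-3.20). Those 2 genes were named as the highest and lowest past the threshold, so with 5 higher and 1 lower their directions had to differ.

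Of 7 genes of the death receptor arm, 4 were higher and 2 lower (median 0.81). The receptor gene Tnfrsf10b was highest (log2 fold change 1.02) and the adaptor gene Fadd lowest (-0.94), from 3.59 to 4.42 TPM with LPS to 1.51 to 1.87 TPM with LPS + UDCA. Of 6 genes for the turnover of the MCL-1 protein, 5 were tested and 4 were higher (median 0.37). The deubiquitinase gene Usp9x had the highest (1.07), from 6.50 to 13.7 TPM with LPS to 16.96 to 22.8 TPM with LPS + UDCA, and the ligase gene Btrc the lowest that passed (0.30). Of 9 transcription factors known to act on BCL-2 family genes, 8 were tested, and 5 were higher and 2 lower (median 0.37). One of the 5, Foxo1, reached the minimum only through the LPS + UDCA libraries (0.7975 and 1.498 TPM on average), and so had to differ. Atf4, a factor of the stress response, was highest, at 472 to 477 TPM with LPS and 897 to 953 TPM with LPS + UDCA (0.96), and E2f1 was lowest (-1.5). Trp53, the gene of p53, was lower by a small margin (-0.25, limma adjusted p = 1.3e-04).

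**Figure D5:**
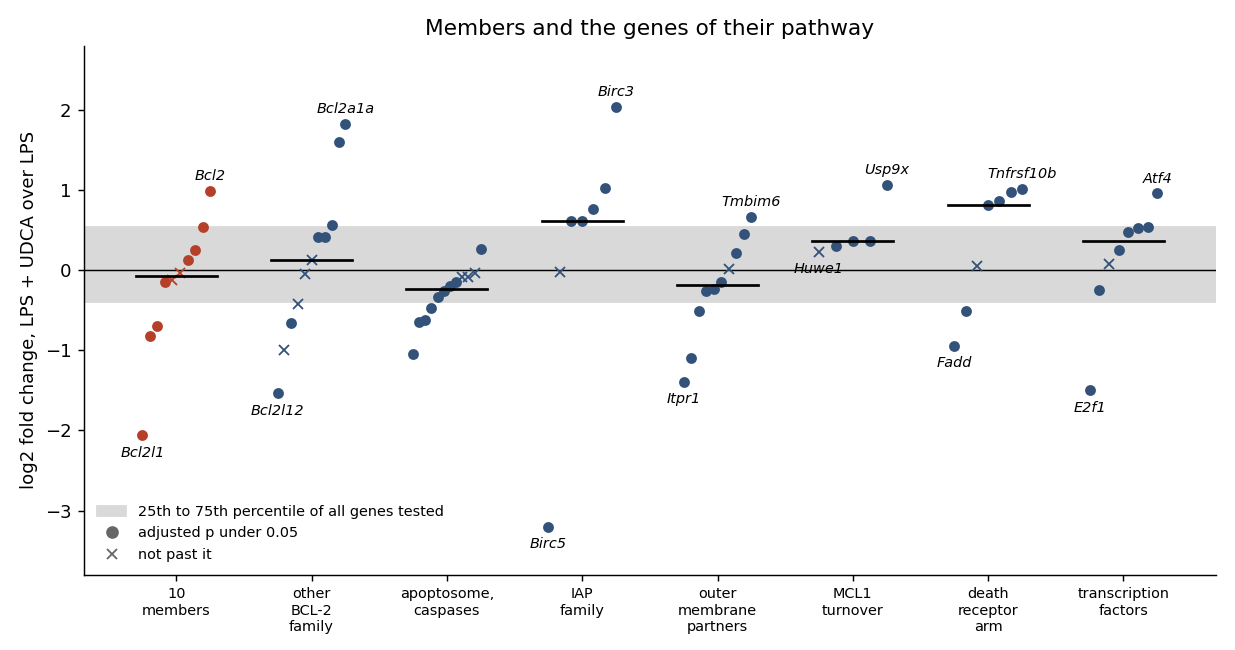
Log2 fold change, LPS + UDCA over LPS, of each tested gene of the BCL-2 family set and of 7 lists of pathway genes, with a bar at each median. The highest and lowest gene of each are named, except in the list of the apoptosome and caspases. Filled points had an adjusted p under 0.05 from limma, crosses did not, and the grey band holds the middle 50% of all genes tested. The points run from Birc5 at -3.20 to Birc3 at 2.04, both in the IAP family.

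Among 7071 other genes that averaged 10 TPM or more, the ones whose log2(TPM + 1) followed Bcl2l1 most closely over the 8 libraries were Lmna, Ckb and Tnf (Pearson's r of 0.9997, 0.9995 and 0.9994). These values mostly restate the difference between the groups, since 1514 genes had an r over 0.95, and they are given as a description. Lmna, which encodes the nuclear lamins A and C, averaged 703.6 ± 8.41 TPM (SD, n = 4) with LPS and 249.7 ± 13.8 TPM when UDCA was added.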

How the data were processed

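RNA from J774A.1 cells treated for 24 h (4 LPS and 4 LPS + UDCA libraries, grouped by the treatment label) was prepared with an Illumina TruSeq RNA kit. The study's methods describe UDCA with or without LPS. Its results and the labels describe LPS with or without UDCA, and the labels were followed. Doses are from those methods. The authors deposited TPM per gene, kept to 2 decimals. The unit was inferred from column sums. Per the labels' processing notes, Bowtie 0.12.2 and the builds mm10 and GRCm38 were used. The counting program is not given in the sources used here.

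The 10 genes and all lists were chosen with earlier results of these data known. log2(TPM + 1) of genes averaging 1 TPM or more was fitted with limma 3.58.1 (R 4.3.3, lmFit and eBayes with a trend), with Benjamini-Hochberg adjustment over all genes tested. Calls needed a 2-fold difference and an adjusted p under 0.05, the thresholds of the study's methods. Its statistics section names one-way analysis of variance for all assays, in place of which limma was used. The fit was tested on simulated data. All 10 genes are named, and from each list the highest and lowest past the threshold and all Bcl2a1 copies. One gene that this rule picks is not reported here. Bik, Bad, Bmf, Trp53, Foxo1, Hrk and Bcl2l10 were named after their values were seen. March5 was matched as Marchf5. Positions and 31-base words are from GENCODE M21 on GRCm38, and promoters from RefSeq on GRCm38.p6. Alternatives covered scaling, pseudocount, filter, variance trend, replicate block, thresholds and each library left out. The sum of the Bcl2a1 copies was added after the values were seen.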

Additional observations from a re-analysis of the deposited data

Results flagged for a closer look

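In 66 groups of 4 values, the ratio of the gap beside the most extreme value to the full range was taken, and 6 were above the 95% critical value of Dixon's test. By chance about 1 in 20 groups would be, or 3.3. LPS + UDCA replicate 2 was apart at the top for Bak1 (87.24 TPM, ratio 0.845) and for Bcl2l11 (45.45 TPM, ratio 0.932). LPS + UDCA replicate 1 was lowest for Birc3 (68.60 TPM, ratio 0.861), and LPS replicate 3 for Btrc (12.36 TPM, ratio 0.855). The survival genes' share of the summed TPM of the 10 genes was highest in LPS replicate 4 (43.5%, ratio 0.846), and Bcl2a1b's share of the survival genes lowest in LPS replicate 1 (22.8%, ratio 0.836). The cause was not tested.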

How the results depend on the processing

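Of 160 alternative values for the 10 genes, 154 kept their direction and their side of an adjusted p of 0.05. The 160 include the sum of the Bcl2a1 copies in place of Bcl2a1b, a measure chosen after the values were seen. That value is among the 154 but not in the range of adjusted p given for Bcl2a1b. Bcl2l1 stayed between -2.17 and -1.95. Bax turned to 0.01 with quantile normalization, Bcl2a1b lost its call with median-of-ratios scaling (0.02), and Bcl2l11 ran from -0.06 to 0.02 with each library left out, turning without LPS replicate 3. Bak1 passed with median-of-ratios scaling (-0.23, limma adjusted p = 0.0044), which moved the median of all genes from 0.08 to -0.02. No member passed the fold change of 2 upward in the fit as reported, but 1 did (Bcl2) with TPM rescaled to equal sums, with a pseudocount of 0.1 and at a fold change of 1.5, and 0 to 1 with a library left out (1 without LPS replicate 3, without LPS replicate 4 or without LPS + UDCA replicate 1). At a fold change of 1.5, 3 members were called down, and without a minimum 4 up and 4 down. Members called down stayed at 1 with each library left out. Over all genes, a mean of at least 5 TPM left 683 called up. A fold change of 1.5 gave 2574 up and 2076 down, and no minimum 4741 up and 3807 down. With each library left out, 959 to 1122 were called up and 972 to 1033 down, and the survival share differed by -14.1 to -13.3 percentage points. The labels do not say that the numbers pair the libraries, and they were not taken to. Deviations from the group means correlated at -0.035 to 0.146 for same-numbered pairs (over 0.1 in 3 of 4) and at -0.145 to 0.162 for other pairs, and 5 of 8 libraries were closest to their own number, a hint from the data only. With the replicate block, Bak1 passed at -0.12 (limma adjusted p = 0.029). The causes of these changes were not tested.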
